A study of Arabidopsis with 12 samples.

Results

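Seedlings of the line tori 35-7 were compared with seedlings of the accession Col-0, both grown on control medium, which answers how the line differs before any water deficit is imposed. The comparison rests on 6 of the 12 arrays of the series, 3 of tori 35-7 control and 3 of Col-0 control. It covers the 16550 genes that had a probe set annotated to 1 gene, and 94 of them passed an adjusted p of 0.05 and are described by function and organelle. The 6 arrays were chosen by their labels. The 94 genes were called on the difference between these arrays, with the spread estimated from all 12 arrays. A fit to the 6 arrays alone called 129 genes, 77 of the 94 among them.

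Whole seedlings of Arabidopsis thaliana were measured on Affymetrix arrays. The tori 35-7 control and Col-0 control seedlings were raised for 5 days at 22 °C, moved for 72 h to 0.8% agar, and harvested when 8 days old. The remaining 6 arrays, 3 tori 35-7 water deficit and 3 Col-0 water deficit, came from seedlings of the same age that spent the 72 h on 2% agar. Col-0 serves as the common laboratory wild type. The labels give tori 35-7 only by name. In the literature on TOR, the name belongs to a line in which TOR is lowered by RNA interference, and 1 line stands for the genotype here.

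TOR, the Target of Rapamycin kinase, forms a complex with RAPTOR and LST8 and is active when sugars, amino acids and auxin are plentiful. The active complex promotes ribosome production, translation and cell growth, and restrains autophagy. In seedlings it is best known for switching on growth of the root and shoot meristems once photosynthesis supplies sugar, and it acts opposite to SnRK1, the kinase of energy shortage.

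TOR itself (AT1G50030) was not analysed here, so its level could not be used to check the labels. Of 14 genes of the TOR complex and its signalling, 6 were measured and 0 passed the test, with 2 of them higher and 4 lower in value. The smallest p belonged to AT4G34270 (TIP41, a regulator of TOR-linked phosphatases), with a log2 difference of -0.89 and an adjusted p of 0.0656. RAPTOR1 differed by -0.18, with an adjusted p of 0.844.

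Values are log2 probe set levels, and every difference is tori 35-7 minus Col-0 on that scale with the standard error of a limma model fitted to all 12 arrays. Array medians over all 38408 probe sets lay between 3.06 and 3.19, and precision is limited by having 3 arrays per group. The array of tori 35-7 control replicate 1 stood apart among the control-medium arrays. The middle 50% of all its probe sets, named or not, spanned 2.68 log2 units. The span was 2.91 to 3.08 on the arrays other than it and Col-0 water deficit replicate 1 (2.56). The median correlation of tori 35-7 control replicate 1 with the other arrays, over probe sets, was 0.971. It was 0.950 for Col-0 water deficit replicate 1 and 0.974 to 0.980 for the remaining arrays. Relative to the Col-0 control mean, the median gene of tori 35-7 control replicate 1 was shifted by 0.08 among genes of low level. The shift was 0.00 among those of middle level and -0.19 among those of high level, in bins of 5516 or 5517 genes. The shifts of tori 35-7 control replicates 2 and 3 in these bins lay between -0.03 and 0.01. Counts are therefore given with and without that array.

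Among the 94 genes, 45 were higher in tori 35-7 (0.272% of the genes tested) and 49 were lower (0.296%), together 0.568%. The called genes were sorted by hand into roles after they were called, so counts by role describe the called genes and not all genes of that function. Among them, genes of the low-oxygen response, secreted peroxidases, wall enzymes, lipids, and defence and signalling made up most of the higher genes with a role. Called genes for plastid and mitochondrial proteins, trafficking and gene expression were mostly lower. The 10 measured genes named for photosynthesis and the 10 named for respiration had no calls and medians of 0.04 and 0.06. Lists by name hold only genes whose symbol or synonym names the function. The 3 tori 35-7 and 3 Col-0 values did not overlap for any of the 94, while 19.2% of all genes had groups that did not overlap. A difference of at least 2-fold was found for 19 higher and 18 lower genes, or 0.224% of all genes. The median difference was 0.95 for the higher and -0.93 for the lower genes, against -0.01 over all 16550 genes. Without tori 35-7 control replicate 1, 28 genes passed (0.169%), 20 higher (0.121%) and 8 lower (0.0483%). Since the groups did not overlap for any of the 94, leaving out that array could not reverse a difference, and none reversed. Of the 94, 26 passed again, 18 higher and 8 lower. AT4G31000 (0.96, adjusted p = 0.0413) and AT5G44390 (0.80, adjusted p = 0.0431) passed only without that array.

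**Figure D1:**
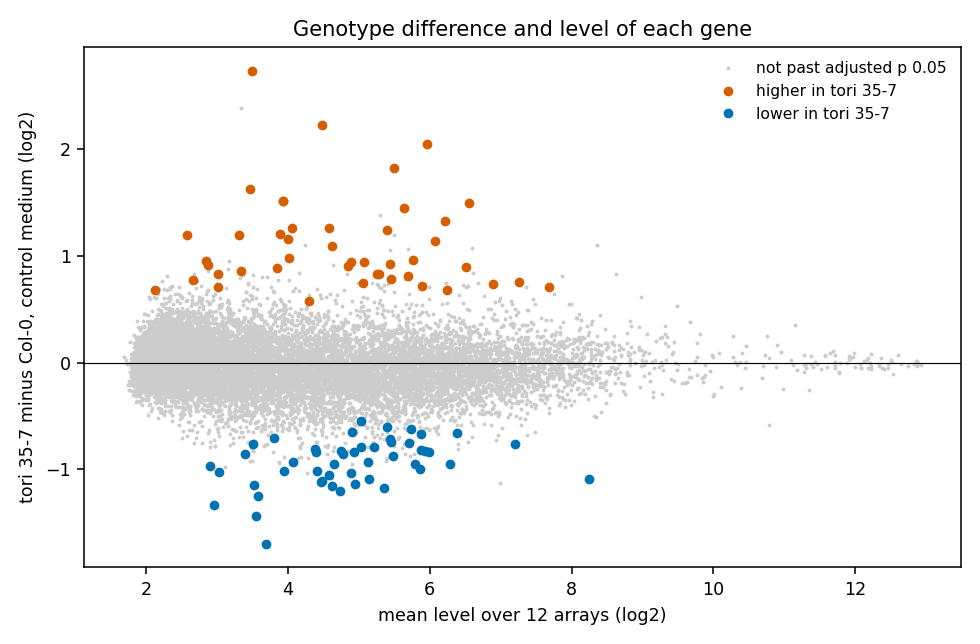
The log2 difference of tori 35-7 minus Col-0 on control medium (vertical axis) is plotted against the mean log2 level over 12 arrays (horizontal axis), 1 point per gene for 16550 genes. The 45 higher genes are drawn in orange and the 49 lower genes in blue, and 27 of the higher and 37 of the lower genes are among the 5517 genes of highest level.

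The largest difference of all was at AT3G10040, which encodes HRA1, a trihelix transcription factor that restrains the low-oxygen response. Its levels were 4.59, 5.53 and 5.56 in tori 35-7, against 2.20, 2.58 and 2.70 in Col-0. The groups were far apart, and tori 35-7 replicate 1 was the lowest of its group but well above every Col-0 array. The difference was 2.74 ± 0.22 (adjusted p = 9.34e-05), or 3.05 ± 0.17 without that replicate (adjusted p = 1.64e-06). AT3G27220, a kelch-repeat protein gene of the core set induced by low oxygen, had levels of 5.26, 6.33 and 6.56 in tori 35-7, against 3.65, 3.77 and 4.03 in Col-0. Again replicate 1 was the lowest tori 35-7 array and the groups did not overlap. The difference was 2.23 ± 0.26 (adjusted p = 0.00204), or 2.63 ± 0.18 without replicate 1 (adjusted p = 9.45e-06).

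The last low-oxygen gene to pass was AT4G27450, a small protein gene of the same core set. Its levels were 5.38, 6.0 and 5.78 in tori 35-7 and 4.32, 4.17 and 4.93 in Col-0, with no overlap. The difference was 1.25 ± 0.21 (adjusted p = 0.0206), or 1.42 ± 0.22 without replicate 1 (adjusted p = 0.0226). Of 31 genes listed for the low-oxygen response, 13 were measured, 3 rose, 0 fell, and 12 of the 13 had a difference above 0, as had 48.5% of all genes. The median over the 13 was 0.25, or 0.35 without replicate 1. The members nearest to passing were AT4G24110 (0.61, adjusted p = 0.0549), CML38, a calmodulin-like calcium sensor (0.72, adjusted p = 0.169), and AT3G23170 (0.55, adjusted p = 0.336).

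**Figure D2:**
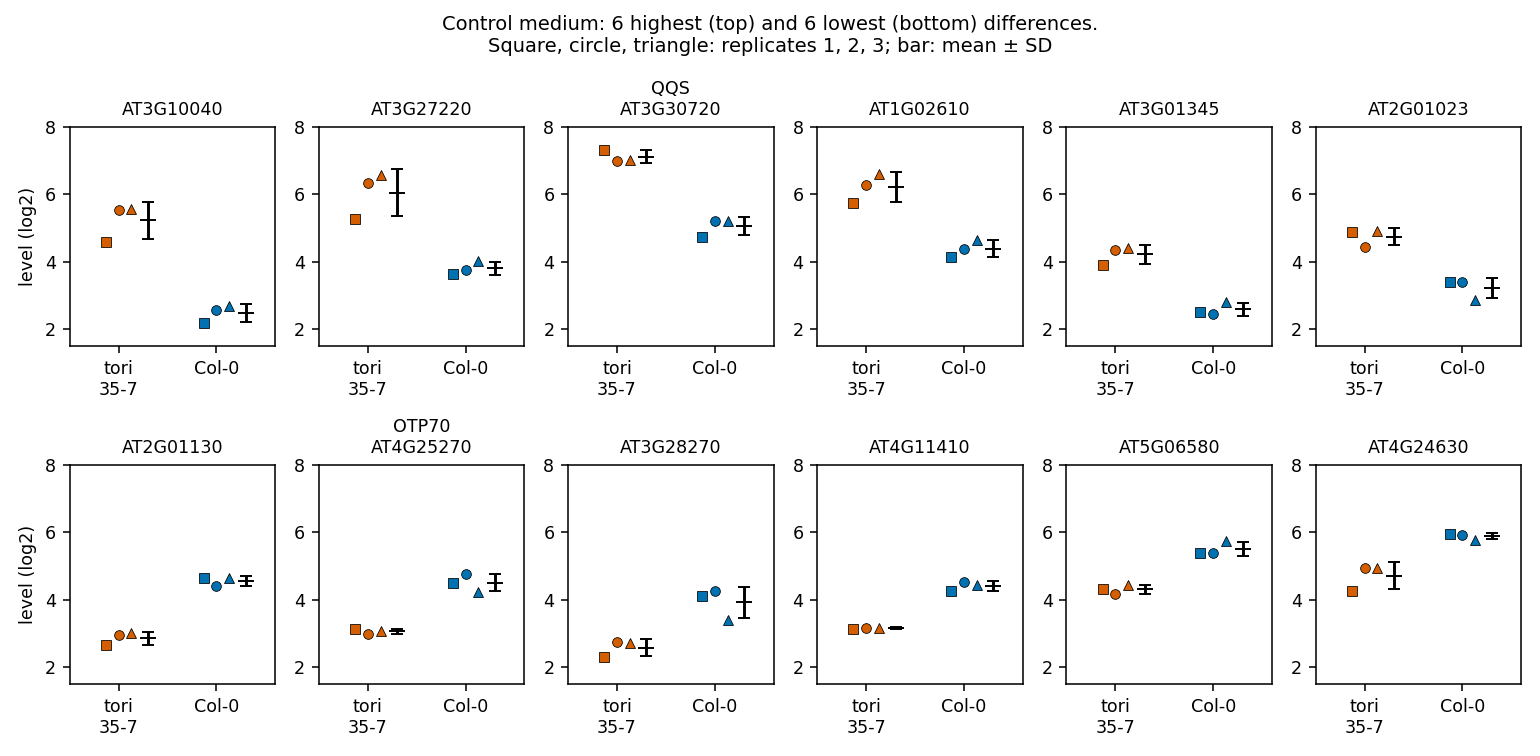
Log2 levels of the 6 highest (top) and 6 most negative differences (bottom) are shown array by array, tori 35-7 left of Col-0 on control medium, with squares, circles and triangles for replicates 1, 2 and 3 and bars for the mean and SD of 3 arrays. At every gene shown the 3 tori 35-7 arrays lie on one side of the 3 Col-0 arrays.

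QQS (AT3G30720), an orphan gene that shifts carbon between starch and protein, rose in tori 35-7. Its levels were 7.33, 7.00 and 7.00 in tori 35-7, against 4.75, 5.22 and 5.20 in Col-0. The lowest tori 35-7 array was more than 1 log2 unit above the highest Col-0 array, and replicate 1 was the highest of its group. The difference was 2.05 ± 0.20 (adjusted p = 0.000326), or 1.95 ± 0.22 without replicate 1 (adjusted p = 0.00229). QQS was the 1 gene to pass among the 5 measured genes of carbon and energy balance. Of the others AKINBETA1, a subunit of SnRK1, had 0.63 (adjusted p = 0.242).

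Called genes for nutrients (carbon, nitrogen, sulfur and iron), transport and nucleotides went both ways, 4 higher and 5 lower. Higher beside QQS were AT4G24450, a glucan, water dikinase of the kind that phosphorylates starch (0.71 ± 0.14, adjusted p = 0.0344), SDI2 (AT1G04770), which represses glucosinolate synthesis when sulfur is short (0.92 ± 0.18, adjusted p = 0.0344), and the sulfurtransferase gene AT5G66170 (0.83 ± 0.17, adjusted p = 0.0391). The asparaginase gene AT5G08100, whose enzyme releases ammonium from asparagine, had levels of 2.36, 2.29 and 2.34 in tori 35-7, against 3.54, 3.17 and 3.18 in Col-0. Its difference was -0.97 ± 0.14 (adjusted p = 0.00889), or -0.98 ± 0.16 without replicate 1 (adjusted p = 0.0294). The tori 35-7 levels of AT5G08100 lay in the range of the 5517 genes of lowest mean level, 1.69 to 2.38. Also lower were AT4G13720, which clears inosine triphosphate from the nucleotide pool (-1.03 ± 0.17), the sugar transporter gene SWEET1 (AT1G21460, -0.84 ± 0.16), AT1G47395, an IRONMAN peptide gene of iron uptake signalling (-0.83 ± 0.16), and AT4G34950, a transporter gene of the major facilitator type (-0.76 ± 0.13). In this group QQS and AT5G08100 were the 2 genes that passed without replicate 1.

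**Figure D3:**
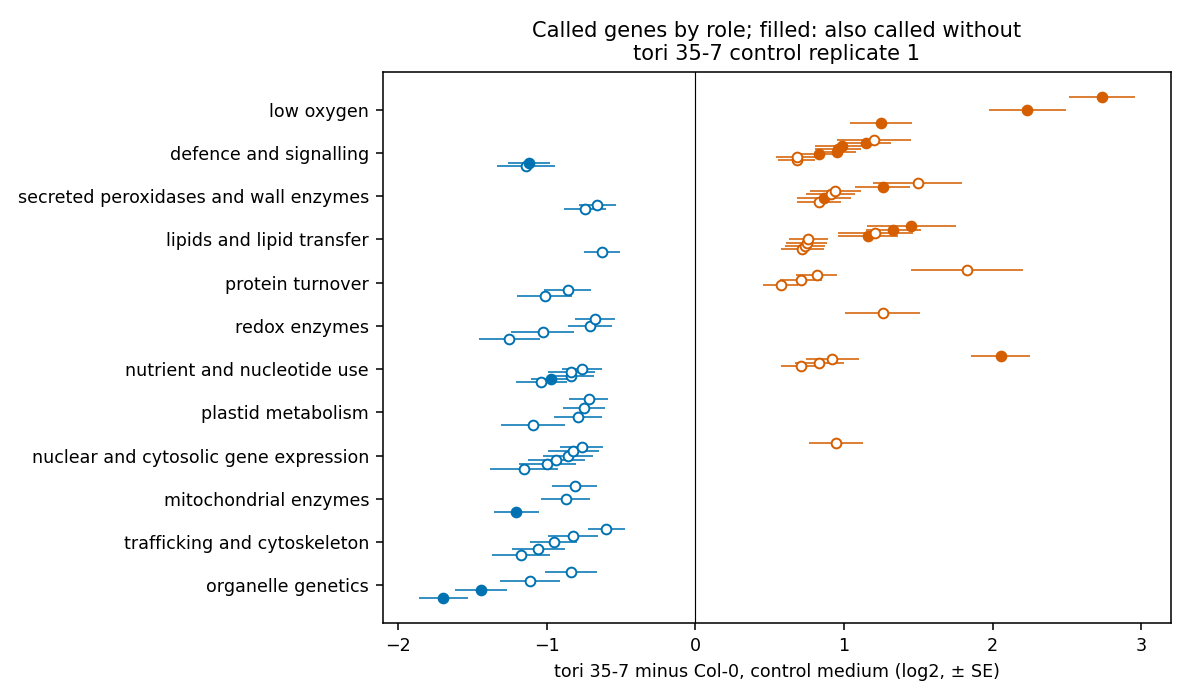
Each point is 1 of the 73 called genes with a role, at its log2 difference of tori 35-7 minus Col-0 on control medium with its standard error, arranged by role group, and filled points passed also without tori 35-7 control replicate 1. The 5 trafficking, 4 organelle genetics, 4 plastid metabolism and 3 mitochondrial genes all lie below 0, and the 3 low-oxygen genes all lie above 0.

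A compartment was assigned by hand to the proteins of 35 of the 94 called genes, and 9 of these were plastid or mitochondrial, 1 higher and 8 lower. The few measured genes that could be grouped by name did not share that direction as a whole. Only 969 of the 16550 genes had a descriptive synonym, so such groups do not stand for all genes of a function. Of 10 named for photosynthesis and chlorophyll 0 passed and 7 were above 0 (median 0.04), of 10 named for respiration and organic acids 0 passed and 6 were above 0 (median 0.06), and of 10 with plastid in their description 0 passed and 6 were below 0 (median -0.09). The called plastid gene with the most negative difference was OTP70 (AT4G25270), a pentatricopeptide repeat protein needed for splicing a chloroplast transcript. Its levels were 3.13, 2.99 and 3.07 in tori 35-7, against 4.51, 4.75 and 4.24 in Col-0. The gap between the groups was larger than the spread within either. The difference was -1.44 ± 0.17 (adjusted p = 0.00247), or -1.47 ± 0.20 without replicate 1 (adjusted p = 0.0118). Of 13 genes that their names tie to organelle RNA processing, OTP70 was the 1 that passed, 12 had a difference below 0 (51.5% of all genes had), and the median was -0.25. RECG1 (AT2G01440), a DNA helicase that guards organelle genomes against recombination, was lower, at -0.84 ± 0.17 (adjusted p = 0.048), but missed the threshold without replicate 1 (-0.63 ± 0.15, adjusted p = 0.155).

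AT5G06580, the mitochondrial D-lactate dehydrogenase that detoxifies D-lactate made from methylglyoxal, fell in tori 35-7. Its levels were 4.32, 4.18 and 4.43 in tori 35-7, against 5.39, 5.40 and 5.75 in Col-0. The 3 tori 35-7 arrays lay close together and below every Col-0 array. The difference was -1.20 ± 0.15 (adjusted p = 0.00313), or -1.21 ± 0.17 without replicate 1 (adjusted p = 0.0169). A related enzyme gene, that of D-2-hydroxyglutarate dehydrogenase (AT4G36400), which feeds electrons from lysine breakdown into respiration, differed by -0.87 ± 0.17 (adjusted p = 0.034). AT1G17350, whose product is similar to an assembly factor of respiratory complex I, differed by -0.81 ± 0.15 (adjusted p = 0.034). Neither passed without replicate 1, both at an adjusted p of 0.135.

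The 4 called genes of plastid metabolism were all lower. They were AT2G46910 of the fibrillins, which coat plastid lipid droplets (-1.09 ± 0.22, adjusted p = 0.0387), starch synthase 5 (AT5G65685, -0.79 ± 0.16, adjusted p = 0.048), the ArgJ gene of arginine synthesis (AT2G37500, -0.75 ± 0.14, adjusted p = 0.0307) and the fructosamine kinase gene AT3G61080 (-0.72 ± 0.13, adjusted p = 0.0284). AT3G61080 was placed here by role but was assigned no compartment, so it is not among the 9 genes counted as plastid or mitochondrial. None of the 4 passed without replicate 1, where the adjusted p lay between 0.0602 and 0.185. The 1 plastid protein gene that was higher was PLIP2 (AT1G02660), a thylakoid lipase that releases fatty acids for oxylipin synthesis. Its levels were 5.45, 6.30 and 6.29 in tori 35-7, against 4.26, 4.38 and 5.03 in Col-0. Replicate 1 came nearest to Col-0, and the difference was 1.45 ± 0.30 (adjusted p = 0.0455), or 1.74 ± 0.30 without it (adjusted p = 0.0412). The organelles' own genes showed no calls. Of 63 chloroplast genome genes 0 passed, with a median difference of -0.01 and a range of -0.59 to 0.25. Of 16 mitochondrial genome genes 0 passed, with a median of 0.05.

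AT2G01130, an RNA helicase gene, had the most negative difference of all. Its levels were 2.65, 2.95 and 3.01 in tori 35-7, against 4.64, 4.40 and 4.65 in Col-0. The groups were more than 1 log2 unit apart. The difference was -1.70 ± 0.17 (adjusted p = 0.000326), or -1.59 ± 0.18 without replicate 1 (adjusted p = 0.00229). AT1G33330, a release factor of the class that ends translation in organelles and bacteria, differed by -1.11 ± 0.20 (adjusted p = 0.0284), or -1.02 ± 0.22 without replicate 1 (adjusted p = 0.114). AT2G01130 and AT1G33330 were counted under organelle genetics by role, but neither was assigned a compartment.

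Called genes of nuclear and cytosolic gene expression were 1 higher and 6 lower, and none of the 7 passed without replicate 1. RRN3 (AT1G30590), the factor that brings RNA polymerase I to ribosomal RNA genes, had levels of 5.07, 5.65 and 5.67 in tori 35-7, against 6.25, 6.47 and 6.14 in Col-0. Replicate 1 was the lowest array. The difference was -0.82 ± 0.17 (adjusted p = 0.0486), or -0.63 ± 0.16 without it (adjusted p = 0.163). Also lower were AT5G12110, a subunit of the translation elongation factor 1B (-0.99 ± 0.19), AT5G49500, the signal recognition particle subunit that directs new proteins to the endoplasmic reticulum (-0.93 ± 0.19), AT2G31580, a tRNA guanylyltransferase (-1.15 ± 0.23), the SNF5-type chromatin remodelling gene AT3G17590 (-0.76 ± 0.15) and RAD5A (AT5G22750), a helicase of DNA repair (-0.86 ± 0.17). COG1 (AT1G29160), a DOF transcription factor that dampens light responses, was higher by 0.95 ± 0.18 (adjusted p = 0.0344). Among 46 genes named as transcription factors 0 passed, with a median of 0.00, and among 30 named for chromatin, DNA and the cell cycle 0 passed, with a median of -0.12. No measured gene carried a name of a ribosomal protein or of nucleolar ribosome assembly, so those groups were not analysed here.

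The 5 called genes of membrane trafficking and the cytoskeleton were all lower, and none passed without replicate 1. AT4G24630, an S-acyltransferase that attaches lipids to proteins of the endomembranes, had levels of 4.26, 4.94 and 4.95 in tori 35-7, against 5.96, 5.93 and 5.78 in Col-0. Its difference was -1.17 ± 0.19 (adjusted p = 0.0189), or -0.94 ± 0.17 without replicate 1 (adjusted p = 0.0519). PIR121 (AT5G18410), a subunit of the complex that starts actin branching, had levels of 5.23, 5.64 and 5.50 in tori 35-7, against 6.38, 6.41 and 6.44 in Col-0. The difference was -0.95 ± 0.16 (adjusted p = 0.0189), or -0.84 ± 0.17 without replicate 1 (adjusted p = 0.0667). TRS130 (AT5G54440), a subunit of the TRAPPII tethering complex needed to build the cell plate, was lower, at -0.83 ± 0.17 (adjusted p = 0.0455). AT5G05570 (-1.05 ± 0.18) and the phox domain gene AT3G15920 (-0.60 ± 0.12) were the other two.

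Of the called genes, 13 were assigned to secreted proteins, 11 higher and 2 lower. EXORDIUM (AT4G08950), a wall protein that promotes cell expansion and answers to brassinosteroids, had levels of 5.40, 5.68 and 5.62 in tori 35-7, against 4.30, 4.2 and 4.43 in Col-0. The groups were separated by nearly 1 log2 unit. The difference was 1.26 ± 0.18 (adjusted p = 0.00903), or 1.34 ± 0.21 without replicate 1 (adjusted p = 0.0218). BGLU45 (AT1G61810), a glucosidase that frees lignin precursors, had levels of 3.44, 3.97 and 3.90 in tori 35-7, against 2.91, 2.90 and 2.90 in Col-0. The difference was 0.87 ± 0.18 (adjusted p = 0.0483), or 1.03 ± 0.18 without replicate 1 (adjusted p = 0.0431). The pectin methylesterase gene AT4G02330 (PME41), whose enzyme alters the stiffness of pectin, rose by 0.94 ± 0.17 (adjusted p = 0.0284). It was the 1 gene to pass among 48 genes named for the cell wall, whose median was 0.07. The 2 lower members were AT3G47000, a glycosyl hydrolase of family 3 type (-0.74 ± 0.14), and AT3G62820, of the invertase and pectin methylesterase inhibitor family (-0.66 ± 0.13).

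Class III peroxidases, which make or consume hydrogen peroxide in the wall, had 3 higher and 0 lower genes among the 64 measured of 73. AT5G39580 had levels of 7.51, 7.84 and 7.76 in tori 35-7, against 6.29, 6.07 and 6.27 in Col-0, and a difference of 1.50 ± 0.30 (adjusted p = 0.0391). AT4G36430 differed by 0.91 ± 0.17 (adjusted p = 0.0291) and AT5G24070 by 0.83 ± 0.15 (adjusted p = 0.0263). The family's median was 0.08, 40 of the 64 differences were above 0, and none of the 3 passed without replicate 1. This family, the EXORDIUM family and the glutaredoxins were listed because called genes belonged to them, so their counts are descriptions.

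Called lipid genes were 8 higher and 1 lower. None of them was among the 15 measured genes that could be grouped by a name of lipid metabolism. Of those 15, 0 passed, with 8 above 0, 7 below 0 and a median of 0.05. AT5G24210, a class 3 lipase gene, had levels of 6.82, 7.05 and 6.98 in tori 35-7, against 5.37, 5.31 and 6.17 in Col-0. Col-0 replicate 3 was the nearest to tori 35-7, and the groups did not overlap. The difference was 1.33 ± 0.19 (adjusted p = 0.00793), or 1.40 ± 0.21 without replicate 1 (adjusted p = 0.02). The lipid-transfer proteins, which carry lipids outside the cell, gave AT4G22470 (1.16 ± 0.20, adjusted p = 0.0234), AT4G12490 (1.21 ± 0.25, adjusted p = 0.0483) and AT3G18280 (0.75 ± 0.14, adjusted p = 0.0291). AT4G22470 passed without replicate 1 (1.27 ± 0.22, adjusted p = 0.0431). Higher were also FACT (AT5G63560), which links caffeic acid to fatty alcohols of root waxes (0.72 ± 0.14), and AT1G73600, a methyltransferase of phosphocholine synthesis (0.76 ± 0.13).

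Called genes of defence and signalling were 8 higher and 2 lower, while of 16 measured genes named for defence or as lectins 0 passed (12 above 0, median 0.07). Of the called genes, 6 of the 10 passed without replicate 1, 5 higher and 1 lower. AT2G20142, which encodes a TIR domain as found in immune receptors, had levels of 3.53, 3.58 and 3.64 in tori 35-7, against 2.69, 2.79 and 2.41 in Col-0. The difference was 0.96 ± 0.13 (adjusted p = 0.00605), or 0.98 ± 0.15 without replicate 1 (adjusted p = 0.0182). AT4G18250, a receptor kinase gene with a thaumatin-like domain, had levels of 4.39, 5.09 and 5.15 in tori 35-7, against 3.88, 3.83 and 3.96 in Col-0. The difference was 0.98 ± 0.18 (adjusted p = 0.0284), or 1.23 ± 0.14 without replicate 1 (adjusted p = 0.00229). The other higher genes that passed without replicate 1 were of several kinds. The VQ motif gene AT3G56880 had 0.96 ± 0.15 (adjusted p = 0.0182), or 1.0 ± 0.17 without replicate 1. The SABATH methyltransferase gene AT5G38020 had 1.145 ± 0.17 (adjusted p = 0.0119), or 1.12 ± 0.20 without it. The acid phosphatase gene AT4G29270 had 0.83 ± 0.14 (adjusted p = 0.0226), or 0.90 ± 0.16 without it. Without replicate 1 the adjusted p was 0.0431 for each of these genes. The jacalin-type lectin gene AT1G52100 had levels of 3.96, 4.31 and 3.91 in tori 35-7, against 5.17, 5.10 and 5.26 in Col-0. The difference was -1.12 ± 0.14 (adjusted p = 0.0032), or -1.07 ± 0.16 without replicate 1 (adjusted p = 0.0182).

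Neither protein turnover nor redox enzymes had a called gene that passed without replicate 1. Called turnover genes were 4 higher and 2 lower (of 78 measured genes named for protein degradation 0 passed, median -0.01), led by the RING-type zinc finger gene AT1G02610 (1.83 ± 0.37, adjusted p = 0.0473, and 0.0716 without replicate 1). Called redox genes were 1 higher and 4 lower. Of 68 measured genes named as oxidoreductases 0 rose and 1 fell, with 37 above 0, 31 below 0 and a median of 0.01. The lower ones included the short-chain dehydrogenase gene AT4G11410 (-1.25 ± 0.20, adjusted p = 0.0184) and AT4G15700, a CC-type glutaredoxin of a group tied to nitrate signalling (-1.03 ± 0.21, adjusted p = 0.048). Of 20 measured glutaredoxins of this type it was the 1 that passed, and the median was -0.08. Its neighbours AT4G15660, AT4G15670, AT4G15680 and AT4G15690 had differences of -0.78, -0.98, -0.92 and -0.68. The 5 genes are near copies of each other, so probes may not tell them apart, and the values may not be separate measurements.

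A role was not given to 21 of the 94 genes, 10 higher and 11 lower. AT3G01345 (1.63 ± 0.24), AT2G01023 (1.52 ± 0.22), AT2G33175 (1.51 ± 0.26) and AT1G65490 (1.20 ± 0.17) were the higher ones that passed also without replicate 1. AT2G38695 (-1.15 ± 0.21), AT2G05540 (-1.09 ± 0.17) and AT3G05625 (-0.95 ± 0.18) were the lower ones. Chromosome 4 held 21 of its 2441 measured genes among the 94 (0.86%), and chromosome 2 held 10 of 2536 (0.39%). Chromosomes 1, 3 and 5 had 0.49%, 0.56% and 0.60%, against 0.568% of all genes. Whether the chromosomes differ was not tested.

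**Figure D4:**
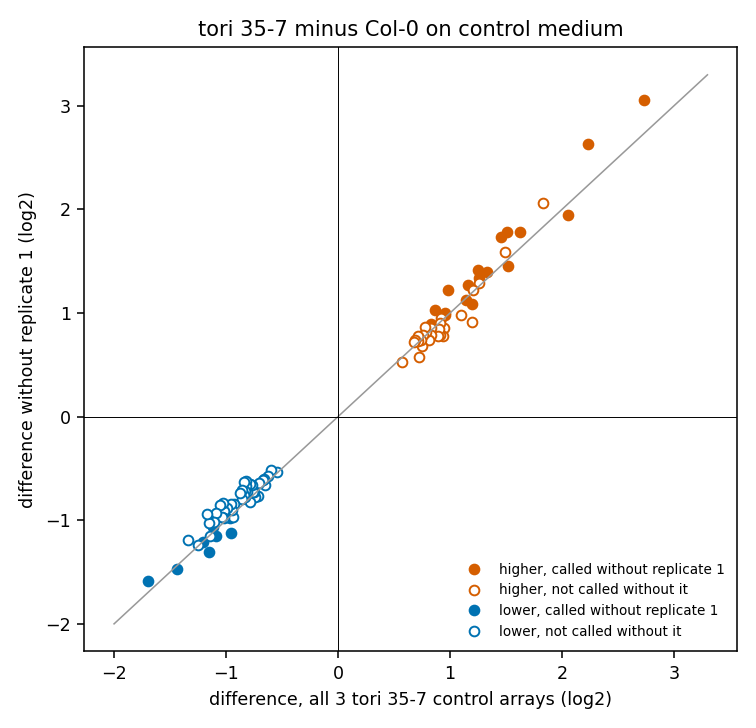
The log2 difference of tori 35-7 minus Col-0 without tori 35-7 control replicate 1 (vertical axis) is plotted against the difference with all 3 tori 35-7 control arrays (horizontal axis) for the 94 genes, with the line of equality. Filled points are the 26 genes that passed in both fits. Every point keeps its sign, as it must where the groups do not overlap.

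Without tori 35-7 control replicate 1, 18 of the 45 higher genes and 8 of the 49 lower genes passed. That array was the lowest of the 3 tori 35-7 arrays at 35 of the 49 lower genes and at 22 of the 45 higher genes. The share of all genes at which it was lowest was not counted. Among the 5517 genes of highest level, its median gene was shifted by -0.19, and 37 of the lower and 27 of the higher genes are among these. The median deviation of tori 35-7 control replicate 1 from the Col-0 mean was -1.06 over the lower genes, against -0.78 and -0.82 on replicates 2 and 3. Over the higher genes the 3 medians were 0.96, 0.97 and 0.96. Without replicate 1 the median difference was 0.95 for the higher and -0.84 for the lower genes. The difference grew in size for 28 of the 45 higher genes and for 12 of the 49 lower genes. The largest adjusted p was 0.162 among the higher and 0.189 among the lower genes. Of the 9 plastid or mitochondrial genes 3 passed without it, and of the 13 genes for secreted proteins 3. A fit without both tori 35-7 control replicate 1 and Col-0 water deficit replicate 1, the arrays of narrowest span, called 153 genes. Of these, 81 were higher and 72 lower, and 81 of the 94 genes passed again. The part that the narrow range of levels of tori 35-7 control replicate 1 plays in the lower calls was not tested.

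Removing any other control-medium array also lowered the count. It was 24 without tori 35-7 control replicate 2 and 17 without replicate 3, and 13, 11 and 26 without Col-0 control replicates 1, 2 and 3. A group of 3 with 1 array removed keeps 2, so these fits have fewer arrays as well as different ones. Over the 6 fits that left out 1 control-medium array, 2 or 3 of the 3 low-oxygen genes passed and 2 of the 4 organelle genetics genes. Those 2 were OTP70 and AT2G01130, the latter with no compartment assigned. In these fits 0 of the 4 plastid metabolism genes and 0 of the 5 redox genes passed. Water-deficit arrays enter through the shared spread. Omitting Col-0 water deficit replicate 1 gave 233 genes and omitting replicate 2 gave 136, of which 79 were lower. There were 37, 46 and 45 without tori 35-7 water deficit replicates 1, 2 and 3. The genes that passed whichever of the 12 arrays was left out were 8, namely AT3G10040, AT3G27220, QQS and AT2G20142 among the higher and AT2G01130, OTP70, AT5G06580 and AT1G52100 among the lower genes.

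The 6 water-deficit arrays compare the same genotypes on 2% agar. Their group means do not enter the control-medium differences, but their spread entered the test that called the 94 genes, so they are not fully independent of that choice. There 39 of the 45 higher genes and 47 of the 49 lower genes had a difference of the same sign, while 47.5% of all genes were above 0 and 52.5% below. Of the 45, 10 were again higher past the threshold (0.495% of all genes were), and of the 49, 9 were again lower (0.326%). None passed in the opposite direction. The sum of these repeat calls, 19 (0.822% of all genes passed in either direction), was 8, 9 and 7 without tori 35-7 water deficit replicates 1, 2 and 3, and 2 in a fit to the 6 water-deficit arrays alone. Groups did not overlap, in the same direction, for 31 and 33 genes, and they did not overlap for 16.7% of all genes. The median difference under water deficit was 0.53 for the higher and -0.41 for the lower genes. It was smaller than on control medium for 38 and 44 genes, which the choice of genes by their control values favours.

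QQS was as far apart under water deficit as on control medium, at 6.97, 6.97 and 6.89 in tori 35-7, against 4.28, 4.77 and 5.18 in Col-0 (2.20 ± 0.20, adjusted p = 0.000202). BGLU45 had 1.52 ± 0.18 (adjusted p = 0.00203), the TRAF-like gene AT1G65370 1.1 ± 0.14 (adjusted p = 0.0026) and AT4G27450 1.01 ± 0.21 (adjusted p = 0.0384). Among the lower genes AT5G08100 had -0.94 ± 0.14 (adjusted p = 0.00852), AT5G06580 -0.86 ± 0.15 (adjusted p = 0.0198) and AT2G01130 -0.89 ± 0.17 (adjusted p = 0.0241). OTP70 had -0.24 ± 0.17 (adjusted p = 0.626) and EXORDIUM -0.00 ± 0.18 (adjusted p = 0.995) on that medium. The low-oxygen gene AT3G27220 had 0.40 ± 0.26 there (adjusted p = 0.564). The median over the 13 measured genes listed for the low-oxygen response was 0.07 under water deficit. Whether these genes' differences depend on the medium was tested by the interaction of genotype and medium, which only AT3G10040 passed of all 16550 genes (0.00604%). Without tori 35-7 control replicate 1, 2 of the 94 passed that test, and without any other single array 0 did.

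**Figure D5:**
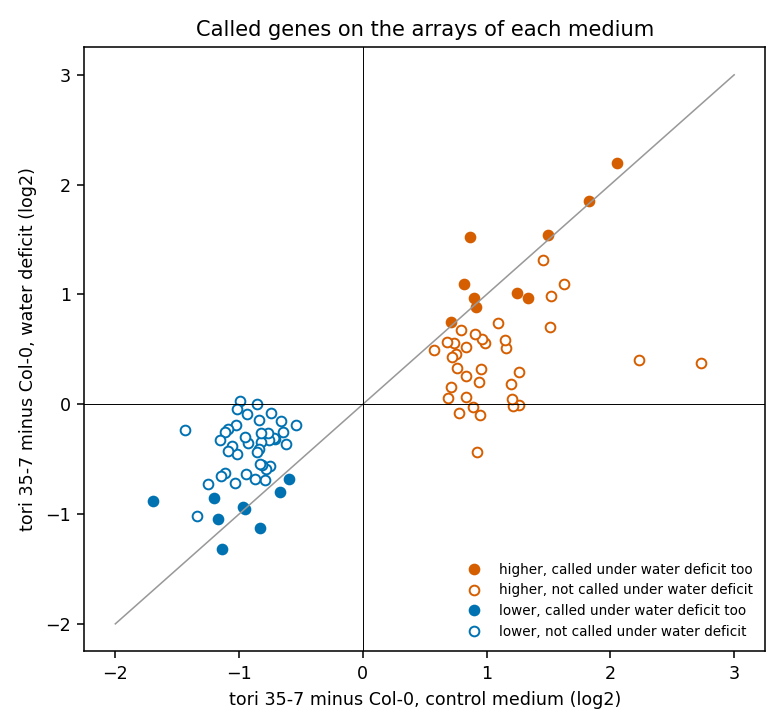
The log2 difference of tori 35-7 minus Col-0 under water deficit (vertical axis) is plotted against that on control medium (horizontal axis) for the 94 genes, from arrays that the axes do not share. The higher genes lie above 0 under water deficit in 39 of 45 cases and the lower genes below 0 in 47 of 49.

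Markers of seedling tissues gave little. Of 6 genes of the stomatal lineage 3 were measured and 0 passed, with FMA, which fixes guard cell fate, at -0.78 (adjusted p = 0.077). Of 10 green tissue genes 3 were measured, with 0 passed and all 3 above 0, among them the antenna protein genes LHCB4.2 (0.51, adjusted p = 0.195) and LHCB4.1 (0.39). Of 5 root hair genes 2 were measured and 0 passed, and CLV3 of the shoot meristem, at -0.06, was the 1 measured of 3. Lists for seed storage, root endodermis and root cap had 0 measured members. In whole seedlings, fewer cells of a type and less RNA per cell cannot be told apart.

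At the threshold, AT4G12490, AT1G30590 and AT5G48440 were the last genes inside, at adjusted p-values of 0.0483, 0.0486 and 0.0498. The first outside were AT1G51080, AT5G07630 and AT5G10050, all lower in value in tori 35-7.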

How the data were processed

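The deposited values, 1 for each of 38408 probe sets on each array, run from 1.13 to 13.2 and name no scale, so they were taken as log2 levels. Per the submitters' processing notes, the authors used Transcriptome Analysis Console 4.0.1. How background was corrected and arrays were normalized and summarized is not given in the sources used here, and its effect is unknown. Of the probe sets, 16722 were annotated to 1 gene, 759 to several (left out), and 20927 are unnamed here. The brightest probe set stood for its gene (146 genes had several), leaving 16550 genes, of which 16411 were named through RefSeq (TAIR10.1). All 12 value columns were mapped and 0 were not. Since 1761 of 10492 protein-coding genes with a symbol were measured, many well-known genes were not analysed here. A descriptive synonym was found for 969 of the 16550 genes. Lists made by name can therefore leave out many measured genes of a function, called ones among them.

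In limma 3.58.1 (lmFit, eBayes; R 4.3.3) all 12 arrays entered 1 fit with a mean for each group and no covariates, and two-sided p-values were adjusted by Benjamini-Hochberg over the 16550 genes. The labels do not say that replicates were separate cultures, and p-values then reflect only the spread among these arrays, which may be technical. Simulated data with 200 changed genes of 16550 gave back 83% of 2-fold and 99% of 4-fold changes, with 6 false calls. The simulated noise was independent between genes, with the same spread for a gene on every array. It lacked the narrow arrays of the real data, so these rates may not hold for the real arrays.

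The genes and lists were chosen with earlier results of these data known, and roles and compartments were assigned by hand to called genes after their values were seen. The rule for named genes took the 15 highest and 15 most negative differences among called genes whose groups did not overlap, up to 5 called members of each list and direction (or up to 2 of smallest p), and the genes called with and without tori 35-7 control replicate 1. Other called genes were named by their role after their values were seen. Tori 35-7 and Col-0 control arrays with the same number did not deviate together (correlations of 0.02, -0.00 and -0.01), so numbers were not taken as pairs. Alternatives were other normalizations, filters, priors, array weights, probe set rules and thresholds, and each array left out in turn. Those for the water-deficit and interaction counts were added after the data were seen.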

Additional observations from a re-analysis of the deposited data

Results flagged for a closer look

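AT3G10040 (HRA1) differed between genotypes by a different amount on each medium. Its difference of tori 35-7 minus Col-0 was 0.38 ± 0.22 under water deficit (adjusted p = 0.526), against 2.74 ± 0.22 on control medium. Under water deficit its levels were 3.31, 3.10 and 3.53 in tori 35-7, against 2.90, 2.96 and 2.96 in Col-0. The interaction, water deficit minus control, was -2.36 ± 0.32 (adjusted p = 0.0436 in limma over 16550 genes). The 3 tori 35-7 control arrays that give the control difference also give the interaction. The interaction count over the 94 genes was 2 without tori 35-7 control replicate 1, and 0 without any other single array and after centring each array on its median.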

How the results depend on the processing

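None of the 94 called genes changed sign in the 9 settings that refitted the named genes or with 1 array left out (0 reversed values). Leaving out or weighting arrays could not change a sign, since the groups did not overlap. Changing the filter or priors leaves the differences as they were. In all 9 settings, where tested, 63 of the 94 passed. The 9 are the settings given next, apart from all probe sets and the 2-fold minimum. The count of 94 was 106 after quantile normalization, 93 after centring, 101 without the dimmest 25%, 88 with trend and robust priors, 99 with averaged probe sets and 98 with the replicate block (45 higher, 53 lower). It was 129 in a fit to the 6 control-medium arrays (54 higher, 75 lower), 42 over all probe sets, named or not (28 higher, 14 lower), 421 with array weights (174 higher, 247 lower), 153 without tori 35-7 control replicate 1 and Col-0 water deficit replicate 1 (81 higher, 72 lower), and 37 with a 2-fold minimum (19 higher, 18 lower). Leaving out each array in turn gave 11 to 233 genes, 5 to 82 higher and 6 to 151 lower. The 19 genes called again under water deficit were 30 after quantile normalization, 31 with array weights, 34 without both arrays and 2 with the 6 water-deficit arrays alone, and 7 to 27 with 1 array left out. The same sign there was kept by 85 to 89 genes over all settings. The 1 interaction was 2 with array weights or without both arrays, 0 after centring, and 0 to 2 with 1 array left out. The cause was not tested. With 3 arrays a group, differences near 2-fold or smaller can be missed.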

Other observations

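Some called genes lie within 5 steps of each other on their chromosome, counted over protein-coding genes. Such pairs numbered 5, and whether that is more than expected was not tested. AT5G38000 and AT5G38020, 2 steps apart, were both higher, as were AT1G02610 and AT1G02660, 5 steps apart. AT4G36430 (0.91) was higher while AT4G36440 (-0.94), 1 step away, and AT4G36400 (-0.87), 3 steps away, were lower.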
